A study of Mus musculus with 6 samples.

Results

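The genes described here are 10 that are transcribed in mouse embryonic stem (ES) cells and in few other cell types, namely Dppa2, Dppa3, Dppa4, Dppa5a, Eras, Tcl1, Fbxo15, Tdh, Utf1 and Zfp42. Each was represented by the array probe set that is annotated with its symbol alone, and where a gene had several such probe sets by the one with the highest mean over all 6 arrays. That gave a probe set for 9 of the 10 genes, among 19938 genes tested. Tdh had none and was not analysed here. The study compared Oct4-GiP mouse ES cells that received vitamin C, as L-ascorbic acid 2-phosphate at 200 μg/ml, for 72 hours, starting a day after seeding, with untreated cells. Both groups carried the Oct4-GiP reporter and grew on gelatin, without serum, in N2B27 with LIF, the MEK inhibitor PD0325901 and the GSK3β inhibitor CHIR99021. RNA of 3 biological replicates per group was hybridised to 6 Affymetrix arrays. All came from a single named cell line, so the replicates do not cover differences between lines.

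Most of these genes were found by screens for transcripts that ES cells have and differentiated cells lack, and several are used as reporters of the undifferentiated state. Eras and Tcl1 act on the PI3K and AKT kinases, which promote growth and survival. Dppa2 and Dppa4 bind chromatin together, keep promoters of developmental genes free of DNA methylation and act upstream of genes of the early cleavage stage embryo. Dppa3 (also named Stella or PGC7) protects DNA methylation in the fertilised egg, and in other cells it restrains the maintenance of methylation. Vitamin C is a cofactor of the TET dioxygenases, which oxidise methylated cytosine, and the title of the series concerns TET-dependent DNA demethylation.

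The promoter table used here (RefSeq, GRCm38.p6) held 4 of the 10 genes. The 250 bases before the start of each gene are printed 5′ to 3′ on the gene's own strand, because they cover the largest rise (Eras), the only fall that passed the test (Tcl1) and 2 smaller rises (Utf1 and Zfp42). Capitals mark CCGCCC (a GC box), TTTGCAT (part of the octamer bound by Oct4) and CCAAT, on either strand.
Eras, chrX:7928608-7928857, minus strand: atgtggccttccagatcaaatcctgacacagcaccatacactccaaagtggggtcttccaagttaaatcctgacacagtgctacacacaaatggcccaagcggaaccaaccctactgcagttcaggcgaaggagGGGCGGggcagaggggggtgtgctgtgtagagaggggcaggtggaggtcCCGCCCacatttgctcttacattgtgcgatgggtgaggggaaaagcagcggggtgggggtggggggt
Tcl1, chr12:105222738-105222987, minus strand: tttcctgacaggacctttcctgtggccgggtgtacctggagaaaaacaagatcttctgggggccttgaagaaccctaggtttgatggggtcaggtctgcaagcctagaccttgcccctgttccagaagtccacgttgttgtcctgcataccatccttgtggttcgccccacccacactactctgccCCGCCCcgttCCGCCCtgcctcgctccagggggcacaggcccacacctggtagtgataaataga
Utf1, chr7:139943606-139943855, plus strand: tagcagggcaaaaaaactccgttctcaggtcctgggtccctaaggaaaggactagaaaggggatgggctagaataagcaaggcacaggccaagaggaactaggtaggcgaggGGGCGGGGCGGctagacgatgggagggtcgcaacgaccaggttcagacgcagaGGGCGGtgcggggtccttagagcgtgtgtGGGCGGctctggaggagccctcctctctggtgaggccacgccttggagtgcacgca
Zfp42, chr8:43307010-43307259, minus strand: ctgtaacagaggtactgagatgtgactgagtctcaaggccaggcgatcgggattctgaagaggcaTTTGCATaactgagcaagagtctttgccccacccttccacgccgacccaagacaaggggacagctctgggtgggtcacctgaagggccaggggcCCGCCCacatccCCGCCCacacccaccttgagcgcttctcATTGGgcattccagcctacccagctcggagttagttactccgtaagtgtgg

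Every one of these 4 windows held CCGCCC on at least 1 strand, with 2 matches for Eras, 2 for Tcl1, 4 for Utf1 and 2 for Zfp42. The motif was added to the search after the sequences had been seen, and 32.9% of 27025 promoter windows of the same length hold it. It was present both for the gene that fell and for the genes that rose, and the first 2 matches of Utf1 overlap by a base. TTTGCAT, which 4.06% of the windows hold, was found for Zfp42 alone, starting 185 bases before the start of the gene. CCAAT, present in 34.5% of windows, was also found for Zfp42 alone. CACGTG (an E-box, in 6.05% of windows), AAGGTCA (an Esrrb-type site, 4.05%) and AAGATGG (a YY1-type site, 4.53%) were in none of the 4 windows. No match overlapped one of another motif. The windows held 6 CpG for Eras, 7 for Tcl1, 9 for Zfp42 and 14 for Utf1, against a median of 6 over all windows (quartiles 2 and 16).

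Signals are log2 values that the authors had normalized with RMA, so a difference of 1 is a doubling, and a level is comparable between arrays but not between probe sets. A gene was called when limma's moderated test gave an adjusted p (Benjamini-Hochberg, over all 19938 genes) under 0.05. Of the 9 measured genes 7 passed, where 13.2% of all genes passed. With vitamin C 6 of them were higher, where 5.75% of all genes were called higher, and 1 was lower, where 7.40% were. All 9 lay above the lower quartile of every array, and among the 4756 genes at least as bright as the dimmest of them 21.9% were called in either direction and 8.24% higher. With all 35557 probe sets tested, named or not, 5 of the 9 passed, where 5.95% of probe sets did. The median log2 difference of the 9 was 0.29, against 0.01 for all genes. For 8 of the 9 every vitamin C array lay on the same side of every untreated array, as it did for 35.0% of all genes. With 1 array left out the count of called genes fell to 4 (without untreated replicate 1 or any of the vitamin C replicates) or 5 (without untreated replicate 2 or 3). In each of these 6 fits Eras, Dppa2, Fbxo15 and Tcl1 remained called. Calls over all 19938 genes fell from 2623 to between 1483 and 1721 in the same fits.

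**Figure D1:**
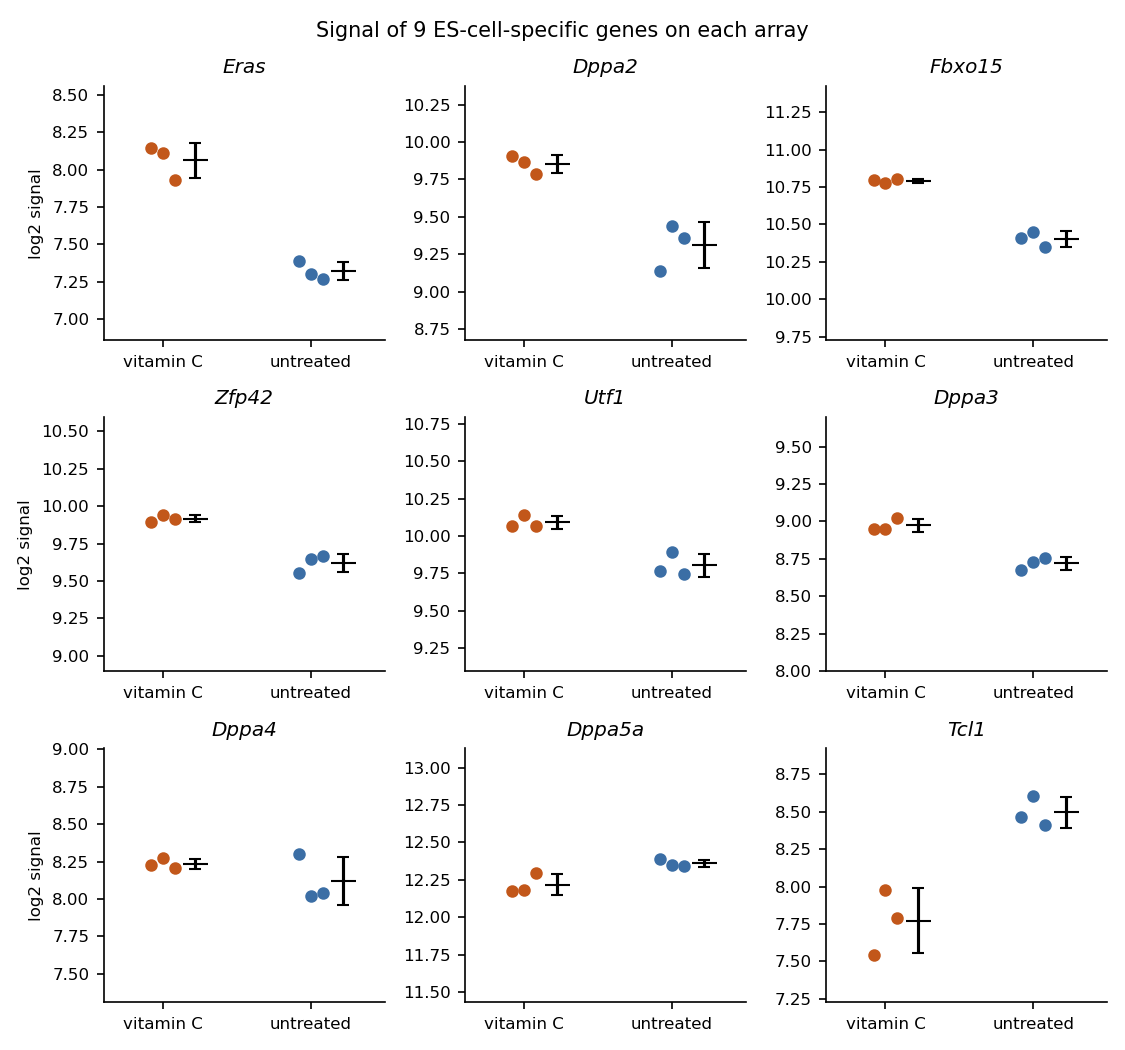
Log2 signal (vertical axis, with the same span in each panel) of the 9 measured genes on each array, with vitamin C in orange and untreated in blue. Points are arrays, and the black mark beside them is the group mean with its SD (n = 3). Eras is the gene with the largest rise (mean 8.06 with vitamin C, 7.32 untreated) and Tcl1 the only called fall (mean 7.77 with vitamin C, 8.50 untreated), and Dppa4 is the only gene whose groups overlap.

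Markers of other cell types differed between the groups as well. In bulk RNA, fewer cells of a type and less RNA per cell cannot be told apart. Of 23 fibroblast markers 8 were higher, 1 was lower and 14 did not pass (39.1% called, against 13.2% of all genes). Their mean log2 signal per array was 6.12 to 6.17 with vitamin C, against 5.73 to 5.83 in untreated cells. Pdgfrb, named after its values were seen, was the marker called lower, with a log2 difference of -0.32 (adjusted p = 0.0179). Fn1 (-0.04), Vim (0.10), Thy1 (0.07), Pdgfra (0.14), Col6a1 (-0.05) and Col6a2 (-0.07), also named afterwards, did not pass. Dcn, Acta2 and Tagln were 2.09-fold, 3.55-fold and 2.04-fold higher. Lox was higher too, at 4.81, 5.09 and 5.43 with vitamin C, against 3.85, 3.67 and 3.33 in untreated cells, where it was below the lower quartile of all 3 arrays. Lum, Postn, Fap and S100a4 of that list were below the lower quartile of every array. Of these Lum was among the 8 called higher (adjusted p = 0.0246), and Postn, Fap and S100a4 did not pass. Of 24 primitive endoderm markers 6 were higher, none was lower and 18 did not pass (25% called, against 13.2% of all genes). Their mean was 5.98 to 5.99 with vitamin C, against 5.78 to 5.82 in untreated cells. Dab2 (0.89), Sparc (0.43), Cited1 (0.45) and Gata6 (0.39) were higher, with a difference of 0.44 for Dab2 when its probe sets were averaged, whereas Gata4 (-0.06) and Sox17 (0.15) did not pass, and Afp, Srgn and Cubn were below the lower quartile of every array. Of 21 measured markers of the formative and primed epiblast 5 were higher, 1 was lower and 15 did not pass (28.6% called, against 13.2% of all genes). Their mean was 6.60 to 6.62 with vitamin C, against 6.51 to 6.55 in untreated cells. Foxd3 (0.84), Etv4 (0.42) and Dusp6 (0.60) were higher and Cldn6 (-0.57) lower, and Dusp6 did not pass without moderation (adjusted p = 0.0667). Fgf5 (0.12), Otx2 (0.12), Pou3f1 (0.02), Lef1 (-0.36) and Eomes (-0.32), named after their values were seen, did not pass. The mean signal of the 9 ES-cell-specific genes was 9.52 to 9.58 with vitamin C, against 9.33 to 9.38 in untreated cells. The part of these other markers in the differences of the ES-cell-specific genes was not tested.

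Eras encodes a Ras-like GTPase that is active without upstream stimulation and drives the tumour-like growth of ES cells. Its log2 signals were 8.15, 8.11 and 7.93 with vitamin C, against 7.39, 7.30 and 7.27 in untreated cells. All vitamin C arrays were higher than all untreated arrays. The log2 difference was 0.74 ± 0.08 (SE), a 1.67-fold rise (adjusted p = 0.00176), with a 95% interval from 0.56 to 0.92. Under all 16 other settings, arrays left out included, it stayed called, with differences from 0.70 to 0.80 and adjusted p from 6.51e-06 to 0.0210. The untreated values lay below the upper quartile of the arrays (7.58 to 7.66) and the vitamin C values above it.

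Tcl1, a coactivator of the AKT kinases that is abundant in ES cells and in some lymphoid tumours, went the other way. Its log2 signals were 7.54, 7.98 and 7.79 with vitamin C, against 8.47, 8.61 and 8.41 in untreated cells. The groups did not overlap, and the vitamin C arrays spread more widely (SD 0.22, against 0.10 in untreated cells, n = 3 each). Its log2 difference was -0.73 ± 0.12 (SE), 1.65-fold lower (adjusted p = 0.00828). The call was lost without moderation of the spread (adjusted p = 0.0642) and held under the other 15 settings, with differences from -0.83 to -0.61. The relatives of Tcl1, Tcl1b1 to Tcl1b5 in that order, differed by 0.14, 0.36, 0.02, 0.32 and 0.04 on the log2 scale, and none of them passed (adjusted p from 0.107 to 0.924). The signals of Tcl1b2, Tcl1b3 and Tcl1b5 were below the lower quartile of every array (4.55 to 4.66).

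Around these genes, 33 of 38 listed Ras, PI3K and AKT pathway genes were measured. Of these 3 were higher, 4 were lower and 26 did not pass (median log2 difference 0.02, against 0.01 for all genes). The share called was 21.2%, against 13.2% of all genes. The largest change was that of Inpp5d, which encodes the lipid phosphatase SHIP1 that removes the product of PI3K. It averaged 8.90 ± 0.04 with vitamin C and 7.82 ± 0.02 in untreated cells (SD, n = 3 each), a log2 difference of 1.08 ± 0.06 (SE, adjusted p = 0.000143). The Ras relative Rras was 1.84-fold lower, the PI3K catalytic subunit gene Pik3cd 1.39-fold lower and the mTOR complex subunit gene Mlst8 1.38-fold lower (adjusted p = 0.0115, and 0.0554 without moderation). The other called genes, chosen for naming after their values were seen, were the PI3K regulatory subunit gene Pik3r3 (0.88) and Mras (0.32), which were higher, and Nras (-0.43), which was lower. Akt1 differed by -0.15, Akt2 by 0.17 and the PI3K subunit gene Pik3ca by -0.03 on the log2 scale, and none of these 3, named after their values were seen, passed.

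Dppa2 encodes a protein with a SAP DNA-binding domain that forms a complex with Dppa4. Its log2 signals were 9.91, 9.87 and 9.79 with vitamin C, against 9.14, 9.44 and 9.36 in untreated cells, and the groups did not overlap. The log2 difference was 0.54 ± 0.09 (SE), 1.46-fold higher (adjusted p = 0.00945). The call was lost without moderation (adjusted p = 0.0569) and was kept under the 16 other settings, where differences ran from 0.45 to 0.69.

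Dppa4, the partner, had log2 signals of 8.23, 8.27 and 8.21 with vitamin C, against 8.30, 8.02 and 8.04 in untreated cells. Untreated replicate 1 lay above every vitamin C array, so the groups overlapped. The log2 difference was 0.12 ± 0.09 (SE, adjusted p = 0.429), with a 95% interval from -0.09 to 0.32, whose upper end is below the 0.54 measured for Dppa2. Set against each other within each array, Dppa2 minus Dppa4 was 1.68, 1.59 and 1.58 with vitamin C, against 0.84, 1.42 and 1.32 in untreated cells. All vitamin C values of this difference were higher, by 0.42 on average (exact two-sided permutation test, p = 0.10, the smallest that 3 against 3 arrays can give). On these probe sets untreated replicate 1 held both the lowest Dppa2 and the highest Dppa4 signal, and without it the shift was 0.25. With the second probe sets described below, untreated replicate 1 did not hold the lowest Dppa2 signal (6.33, against 6.20 in replicate 2). The shift was 0.67 with those probe sets and 0.55 with the probe sets of each gene averaged.

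Dppa3 had log2 signals of 8.95, 8.95 and 9.02 with vitamin C, against 8.67, 8.73 and 8.76 in untreated cells. Its groups did not overlap, and the log2 difference was 0.25 ± 0.06 (SE), 1.19-fold higher (adjusted p = 0.0350). The call was lost when any 1 of the 6 arrays was left out (adjusted p from 0.0745 to 0.102) and when all probe sets were tested (0.0630), while the difference stayed between 0.23 and 0.27 with 1 array left out. Dppa5a (also named Esg1), which encodes an RNA-binding KH-domain protein, lay far above the upper quartile of every array. Its log2 signals were 12.17, 12.18 and 12.30 with vitamin C, against 12.39, 12.35 and 12.34 in untreated cells. Every vitamin C array was lower, but the log2 difference of -0.14 ± 0.06 (SE) did not pass (adjusted p = 0.190, 95% interval from -0.29 to 0.0064). With a trended and robust estimate of the spread it did (adjusted p = 0.00416).

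Dppa2, Dppa3 and Dppa4 each had a second probe set with the same symbol, and the platform annotation lists the same transcript for both. Of the 10 named probe sets nearest in number to those of Dppa5a, Eras, Tcl1, Fbxo15, Utf1 and Zfp42, 9 or 10 belonged to genes on the gene's own chromosome. For the Dppa2 probe set used above, 8 of the 10 belonged to genes of chromosome 19, although Dppa2 lies on chromosome 16. For the Dppa3 probe set used above, 10 of 10 belonged to the X chromosome, although Dppa3 lies on chromosome 6, and the gene table lists a Dppa3 pseudogene, Dppa3-ps, on the X. The second probe sets of these genes had 9 of 10 such neighbours on chromosome 16 and 8 of 10 on chromosome 6. The positions of the probes were not given in the sources used here, so the signal of a gene and that of a near-identical copy cannot be told apart.

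The second Dppa2 probe set gave log2 signals of 7.07, 6.95 and 6.94 with vitamin C, against 6.33, 6.20 and 6.37 in untreated cells. Its log2 difference was 0.69, 1.61-fold higher (adjusted p = 0.00175 in place of the first). That of Dppa3 gave 7.83, 8.02 and 7.92 with vitamin C, against 7.62, 7.52 and 7.72 in untreated cells, a log2 difference of 0.30. Its adjusted p was 0.0492 in place of the first, and 0.102, not passing, with all probe sets tested (limma). Both were higher on all vitamin C arrays, as the first probe sets were. For Dppa4 the second probe set, 10 of whose 10 neighbours belonged to chromosome 2, differed by 0.02 (adjusted p = 0.918). With the second probe sets in place of the first, a setting chosen after seeing the data, 7 of the 9 genes were called as before. Dppa5a has the annotated pseudogenes Dppa5b and Dppa5c and Zfp42 has Zfp42-ps1, so their separate signals are uncertain in the same way.

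**Figure D2:**
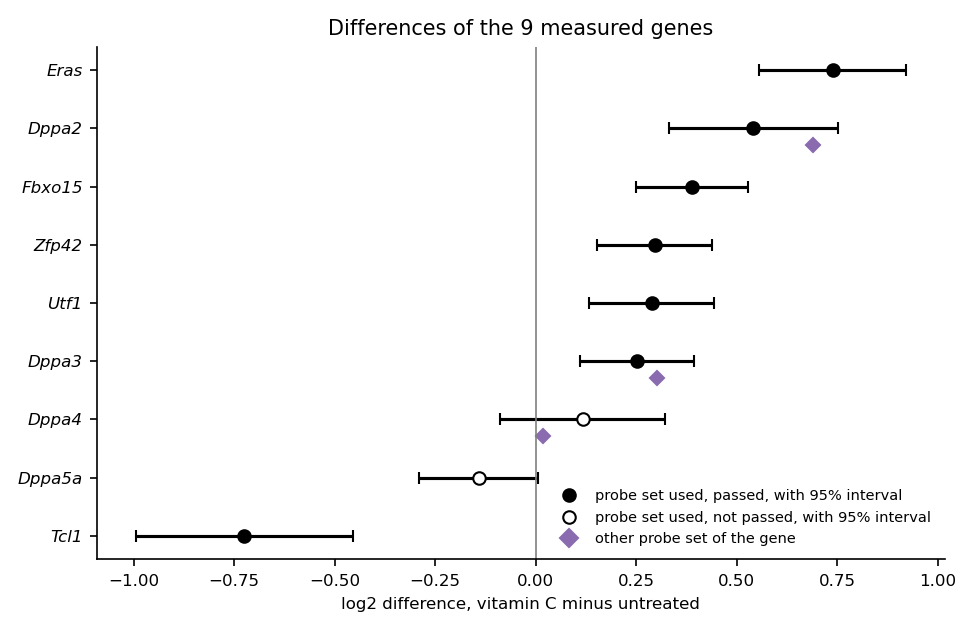
Log2 difference, vitamin C minus untreated (horizontal axis), of the 9 measured genes. Circles with 95% intervals are the probe sets used, filled where the adjusted p was under 0.05, and purple diamonds are the second probe sets of Dppa2 (0.69), Dppa3 (0.30) and Dppa4 (0.02). The values run from 0.74 for Eras to -0.73 for Tcl1, and the intervals of Dppa4 and Dppa5a include 0.

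Zfp42, better known as Rex1, encodes a zinc finger protein related to YY1 and is a marker of the naive state. Its log2 signals were 9.89, 9.94 and 9.91 with vitamin C, against 9.55, 9.64 and 9.66 in untreated cells. The groups did not overlap, and the log2 difference was 0.30 ± 0.06 (SE), 1.23-fold higher (adjusted p = 0.0214). The call held without untreated replicate 3 and was lost without any other array (adjusted p from 0.0556 to 0.0688). Utf1, a chromatin-associated factor whose gene is a target of Oct4 and Sox2, had log2 signals of 10.07, 10.14 and 10.07 with vitamin C, against 9.77, 9.89 and 9.75 in untreated cells. The groups did not overlap either, and the log2 difference was 0.29 ± 0.07 (SE), 1.22-fold higher (adjusted p = 0.0313). Its call held without untreated replicate 2 and was lost without any other array (adjusted p from 0.0727 to 0.0982). It was also lost without moderation (0.0577) and with all probe sets tested (0.0641).

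Fbxo15 encodes an F-box protein, the substrate-binding part of a ubiquitin ligase, and its promoter has served to report reprogramming to the pluripotent state. Its log2 signals were 10.79, 10.78 and 10.80 with vitamin C, against 10.41, 10.45 and 10.35 in untreated cells. The 3 vitamin C arrays were nearly identical (SD 0.014, n = 3), and all lay above the untreated arrays (SD 0.053, n = 3). The log2 difference was 0.39 ± 0.06 (SE), 1.31-fold higher (adjusted p = 0.00733), and it stayed called under all 16 other settings, with adjusted p from 2.68e-06 to 0.0322.

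Tdh encodes threonine dehydrogenase, with which mouse ES cells break down threonine into glycine and acetyl-CoA. Although Tdh was not analysed here, 20 of 24 listed genes of threonine, glycine and one-carbon metabolism were measured, and 3 were higher, 5 lower and 12 did not pass (40.0% called, against 13.2% of all genes, with a median log2 difference of -0.03). Gcat, the ligase that acts directly after Tdh, averaged 7.63 ± 0.05 with vitamin C and 8.42 ± 0.05 in untreated cells (SD, n = 3 each), 1.73-fold lower (adjusted p = 0.00062). Of the 4 genes of the glycine cleavage system 2 were lower too. Gldc averaged 6.76 ± 0.10 with vitamin C and 7.53 ± 0.03 in untreated cells (SD, n = 3 each), and Amt 8.15 ± 0.07 with vitamin C and 8.57 ± 0.02 in untreated cells. Their falls were 1.71-fold (adjusted p = 0.00101) and 1.34-fold (adjusted p = 0.00704), while the other 2 genes of that system, Gcsh (-0.19) and Dld (0.02), did not pass. The folate enzyme gene Aldh1l1 was 1.42-fold lower (adjusted p = 0.00575). The other calls, named after their values were seen, were the fall of Shmt2 (-0.23) and the rises of Mthfd2 (0.31), Mat2b (0.23) and Aldh1l2 (0.24). With 1 array left out, whichever it was, the list's count of calls was 4 or 5 in place of 8. Over all genes the count was 1483 to 1721 in place of 2623.

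To see whether whole stretches of chromosome moved, the 2 nearest tested genes on each side of each of the 10 genes were taken from the gene table. Of these 36 neighbours 1 was higher, 4 were lower and 31 did not pass, and the 13.9% called was close to the 13.2% of all genes. The surroundings of Dppa3 on chromosome 6 held 3 of these 5 calls, in both directions. Nanog, the naive pluripotency factor, averaged 11.84 ± 0.02 with vitamin C and 11.55 ± 0.03 in untreated cells (SD, n = 3 each), 1.22-fold higher (adjusted p = 0.0168; lost without untreated replicate 1 or 3 or vitamin C replicate 1 or 3, 0.0530 to 0.0577). The growth factor gene Gdf3 on the other side averaged 9.26 ± 0.02 with vitamin C and 9.73 ± 0.07 in untreated cells, 1.39-fold lower (adjusted p = 0.00446). Slc2a3, a glucose transporter gene, was 1.20-fold lower (adjusted p = 0.0233; lost without any 1 array, 0.0549 to 0.0715). The other calls were falls of Cyb5a next to Fbxo15 (-0.25, adjusted p = 0.0317; lost without any 1 array, 0.0579 to 0.0939, and with all probe sets tested, 0.0558) and of Omt2a near Dppa5a (-0.51). The signal of Omt2a, 1.52 with vitamin C and 2.03 in untreated cells, was below the lower quartile of every array, and its call was lost without moderation (adjusted p = 0.0558). With 1 array left out, 2 or 3 neighbours were called in place of 5. Calls over all genes were then 1483 to 1721 in place of 2623.

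**Figure D3:**
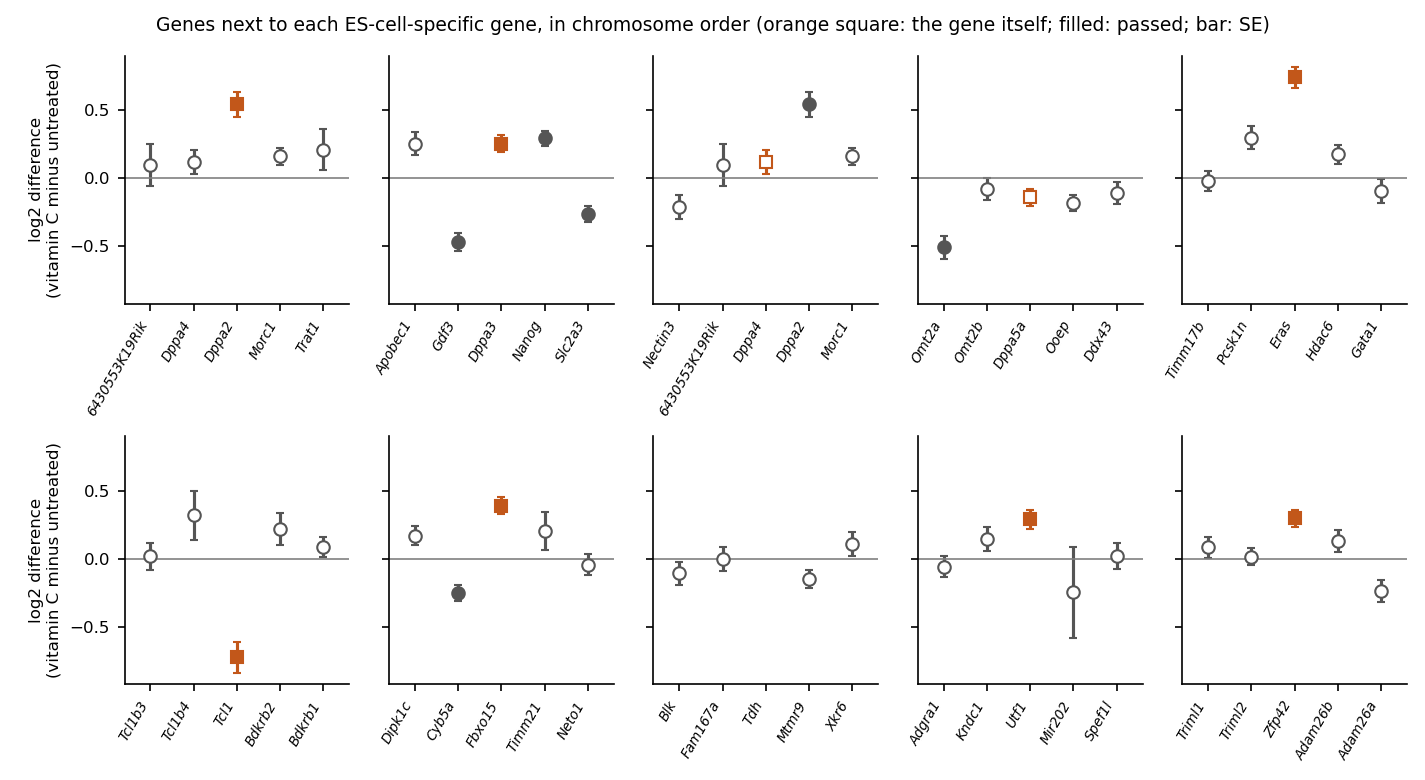
Log2 difference, vitamin C minus untreated (vertical axis), of each ES-cell-specific gene (orange squares) and of the 2 nearest tested genes on each side in chromosome order (grey circles), with SE bars. Filled symbols passed the test. Eras (0.74) and Tcl1 (-0.73) have no called neighbour, and Dppa3 lies between a fall of Gdf3 (-0.47) and a rise of Nanog (0.29); the Tdh panel has no square because Tdh was not measured.

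The identity of the cells was checked on 6 defining ES-cell genes, all far above the lower quartile of the arrays. Pou5f1, which encodes Oct4, averaged 11.14 ± 0.05 with vitamin C and 11.26 ± 0.02 in untreated cells (SD, n = 3 each; adjusted p = 0.235), and Sox2 (0.13), Sall4 (0.07) and Esrrb (-0.05) did not pass either. Besides Nanog, which was higher, the gene of the RNA-binding protein Lin28a was 1.43-fold lower (adjusted p = 0.0151). Thus 2 of the 6 were called (33.3%, against 13.2% of all genes). Among the 4756 genes at least as bright as the dimmest ES-cell-specific gene the share was 21.9%. Lin28a was dimmer than that gene. The call of Lin28a was lost without untreated replicate 3 (adjusted p = 0.0529) or vitamin C replicate 3 (0.0515) and without moderation (0.0766).

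Other genes that ES cells transcribe preferentially moved in both directions. Of 28 measured (30 listed) 4 were higher, 6 were lower and 18 did not pass (35.7% called, against 13.2% of all genes). Among the 4756 brighter genes given above the share was 21.9%, and some of the 28 were dimmer than those. The median log2 difference was -0.0029. The hormone gene Trh averaged 7.82 ± 0.05 with vitamin C and 9.12 ± 0.13 in untreated cells (SD, n = 3 each), 2.46-fold lower (adjusted p = 0.000211). Tdrd12, of the piRNA pathway, was 2.02-fold lower (adjusted p = 0.000842), and Khdc3, a KH-domain gene of the same family as Dppa5a, was 1.79-fold higher (adjusted p = 0.00296). Zfp296 (0.48), Tex19.1 (0.44) and Jam2 (0.36) were the other called rises, and Alpl (-0.36), Sox15 (-0.33) and Upp1 (-0.24) the called falls besides Trh, Tdrd12 and Gdf3, named after their values were seen. Without untreated replicate 3 the list had 6 calls in place of 10, and all genes had 1550 in place of 2623.

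Among markers of the 2-cell-like state, to which Dppa2 and Dppa4 contribute, 12 of 28 listed genes were measured, and 4 were higher, 3 lower and 5 did not pass (58.3% called, against 13.2% of all genes, with a median log2 difference of 0.27). No Zscan4 or Dux gene was among them. Ddit4l (0.70) was higher, as were Usp17la (0.58), Usp17lb (0.41) and Tdpoz1, these 3 named after their values were seen, and AF067061 (-0.86), Tcstv3 (-0.74) and Tdpoz3 were lower. The signal of Tdpoz1 was below the lower quartile of every array and that of Tdpoz3 below it on all 3 vitamin C arrays and 1 untreated array, so no size is given for them, and Tdpoz3 did not pass without moderation (adjusted p = 0.0929). Many of these genes have near-identical copies, so their separate signals are uncertain. Without vitamin C replicate 1 or 2 the list had 4 calls in place of 7. Over all genes these fits gave 1483 and 1721 calls in place of 2623.

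**Figure D4:**
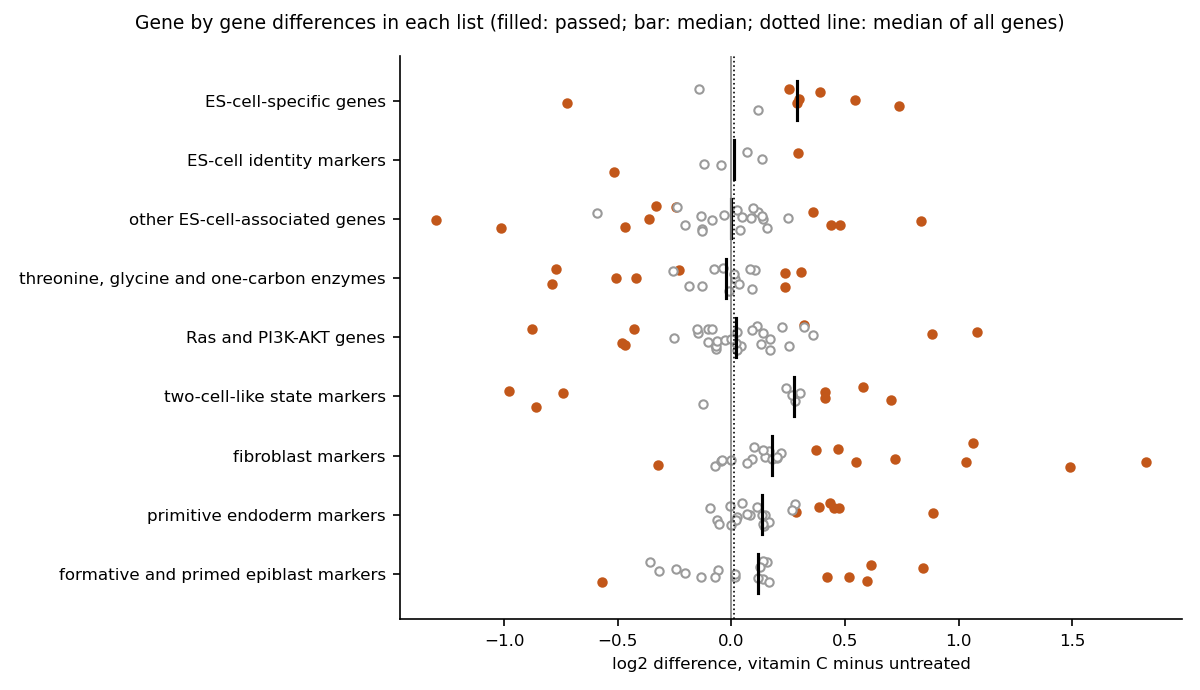
Log2 difference, vitamin C minus untreated (horizontal axis), of every measured gene of each list (rows), filled where the adjusted p was under 0.05. Black bars are list medians and the dotted line is the median of all 19938 genes (0.01). The ES-cell-specific genes have a median of 0.29, and the other ES-cell-associated genes lie on both sides of 0 with a median of -0.0029.

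The genes whose log2 signals over the 6 arrays, centred on their own mean, came closest to those of Eras were H2-Eb1, Zfp640 and Casp8. Their root mean square differences from Eras were 0.058, 0.059 and 0.063 on the log2 scale, and their own log2 differences were 0.75, 0.80 and 0.71. For Tcl1 the closest were Kyat1, Zfp729b and Rhd, with root mean square differences of 0.071, 0.079 and 0.082. They differed by -0.74, -0.69 and -0.69 on the log2 scale. Because the genes were chosen for closeness on the same 6 arrays, log2 differences near those of Eras and Tcl1 follow from the choice.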

How the data were processed

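The deposited values are one column of log2 signals per array for 35557 probe sets, normalized by the authors with RMA, per the submitters' processing notes. The log2 scale was inferred from the range of the values. RMA in general corrects background, quantile-normalizes the arrays and summarises probes, which removes a shift common to all genes. The sources used here do not name its software or version. Per the labels' protocols, RNA was amplified with a whole-transcriptome kit and labelled with biotin. The number of arrays limits the precision, and no batch is given in the sources used here.

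The platform annotation gave 1 symbol for 21789 probe sets, 21698 of them matched to RefSeq genes (GRCm38.p6), which left 19938 genes. Vitamin C was compared with untreated, by the sample titles, with limma 3.58.1 in R 4.3.3. The fit had no covariate and was moderated by eBayes after lmFit, with Benjamini-Hochberg adjustment over all genes. Arrays correlated at 0.995 to 0.996 within groups and at 0.989 to 0.990 between groups. The members and the lists, the settings tried and the rule for named genes (the 10 genes, called neighbours, up to 4 called genes of each list with the smallest p, the identity markers and the 3 genes most like Eras and Tcl1) were chosen with earlier results of these data known. Protein sequences were planned and not used here. Figures were drawn with matplotlib 3.10.9.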

Additional observations from a re-analysis of the deposited data

How the results depend on the processing

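Under 16 alternative settings (17 for the genes with a second probe set) no direction reversed, and Eras and Fbxo15 stayed called in every setting. With a trended and robust spread, 4151 genes were called (1731 higher, 2420 lower), 2 ES-cell-specific genes were called lower because Dppa5a (-0.14) now passed, and calls numbered 9 among neighbours, 4 among identity markers, 16 among other ES-cell-associated genes and 12 among Ras and PI3K-AKT genes. Without moderation 1545 genes were called (667 higher, 878 lower), 4 of the ES-cell-specific genes and 0 of them lower, as Dppa2 (0.54), Tcl1 (-0.73, adjusted p = 0.0642) and Utf1 (0.29) were lost, and calls numbered 1 among identity markers, 4 among Ras and PI3K-AKT genes and 3 each among 2-cell-like and primed epiblast genes. At an adjusted p under 0.01, 901 genes (405 higher, 496 lower) and 4 ES-cell-specific genes (3 higher) passed, without Dppa3 (0.25), Utf1 (0.29) and Zfp42 (0.30), and calls numbered 1 among neighbours, 0 among identity markers (limma; 2 at an unadjusted p under 0.05), 6 among other ES-cell-associated genes, 4 among one-carbon enzymes, 3 each among Ras and PI3K-AKT, 2-cell-like and primed epiblast genes, and 2 among primitive endoderm markers. Repeated quantile normalization gave 8 called neighbours. Without dim genes 2240 genes were lower, and calls numbered 8 among neighbours, 12 among Ras and PI3K-AKT genes and 5 among fibroblast markers, with fewer genes tested. With all probe sets tested, 4 one-carbon enzymes passed, and Dppa3 (0.25) and Utf1 (0.29) did not.

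No pairing by replicate number was seen in the deviations of arrays from their group means. Same-numbered arrays correlated at 0.05, 0.01 and -0.02, and differently numbered arrays at -0.07 to 0.05. With 3 arrays per group, these values cannot show whether same-numbered arrays were handled together. With the replicate number as a block 1723 genes were called (763 higher, 960 lower), 4 ES-cell-specific genes (3 higher, without Dppa3 at 0.25, Utf1 at 0.29 and Zfp42 at 0.30), 2 neighbours, 1 identity marker and 4 one-carbon enzymes.

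With 1 array left out, from fits with fewer arrays, calls ranged from 1483 to 1721 genes (663 to 733 higher, 820 to 988 lower), 4 to 5 ES-cell-specific genes (3 to 4 higher), 2 to 3 neighbours, 0 to 2 identity markers, 6 to 9 other ES-cell-associated genes, 4 to 5 one-carbon enzymes and 4 to 6 2-cell-like genes. The log2 differences ranged from 0.23 to 0.27 for Dppa3, from 0.26 to 0.33 for Utf1 and from 0.26 to 0.32 for Zfp42. The cause of these lost calls beyond the smaller number of arrays was not tested.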
